A study of Gallus gallus with 2 samples.

Results

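Endothelial cells, which line the blood vessels that grow into the embryonic chick cerebellum, were picked out of single-cell RNA libraries as the cells with a unique molecular identifier (UMI, a tag that marks 1 captured RNA molecule) of at least 3 of 5 endothelial genes: CDH5, KDR, FLT1, EMCN and TIE1. The rule took 127 of 15190 cells, or 0.836% (exact 95% binomial interval 0.697 to 0.994%), 63 from the first sublibrary and 64 from the second. The embryos were chicks of wild-type genotype taken on embryonic day (E) 6, 7, 8 or 9, and their dissected cerebella were pooled before dissociation. They were barcoded with the Evercode WT Mini kit, a split-pool method in which fixed cells take up a part of their barcode in each of several rounds of wells, and each stage occupied 3 first-round wells. All cells were then divided over 2 sublibraries, a technical split, so each stage is 1 sample: no test between stages is possible, and intervals below cover counting error only.

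Brain vessels start as sprouts from a plexus around the neural tube. Vascular endothelial growth factor (VEGF) from the tissue guides tip cells at the front of a sprout, Notch signals from tip to stalk cells limit their number, and WNT ligands from neural progenitors act on the sprouting cells to switch on the blood-brain barrier, the set of tight junctions and transporters that seals brain capillaries. Arterial and venous endothelial cells differ in the genes they use, and pericytes and smooth muscle cells, together called mural cells, join the vessels from outside.

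Some barcodes stood in both sublibraries. There were 896 barcodes found in both, and 28 members had one of them. Of these barcodes 8 were members in both sublibraries, so that the 127 members are 119 when each such barcode is counted once. In 5 of these 8 pairs the deeper cell held between 47.4 and 51.2 times the UMIs of the shallower one, for example 95440 against 1924 UMIs at E8 and 37429 against 790 at E9. Whether such pairs are 1 cell was not tested.

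A second limit lies in the members themselves. A list of 19 measured endothelial genes outside the rule, among them PECAM1, VWF, EGFL7 and TEK, took at least 51.9 UMIs per 10000 in 113 members and at most 28.1 per 10000 in the other 14. A line at 40 per 10000, chosen after the values were seen, separates them, and the name endothelial holds by these genes for the 113. The 14 low members were 9 cells of E7, 2 of E8 and 3 of E9, and none had a UMI of all 5 genes. In 5 of them the mural list (PDGFRB, ACTA2, RGS5 and others) took 17.0 to 57.8 UMIs per 10000, against a median of 1.18 over all members, and in 1 the myeloid list took 56.2 per 10000. The granule cell list took 61.9 and 98.8 per 10000 in low members of E7 and 85.1 in 1 of E9, against a median of 3.59 over all members. The radial glia list took 61.0 and 97.0 in low members of E7 (median 8.81), and the Purkinje list 76.7 in 1 of E7 (median 31.8). Among the other 113 members the Purkinje list reached 90.7, so its value does not set that member apart. At least 6 genes of the neuron list had a UMI in 9 of these 14 members and in 33 of the other 113. For some calls and counts below, the value without these 14 is given beside it. A count or median given alone may also change without them.

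**Figure D1:**
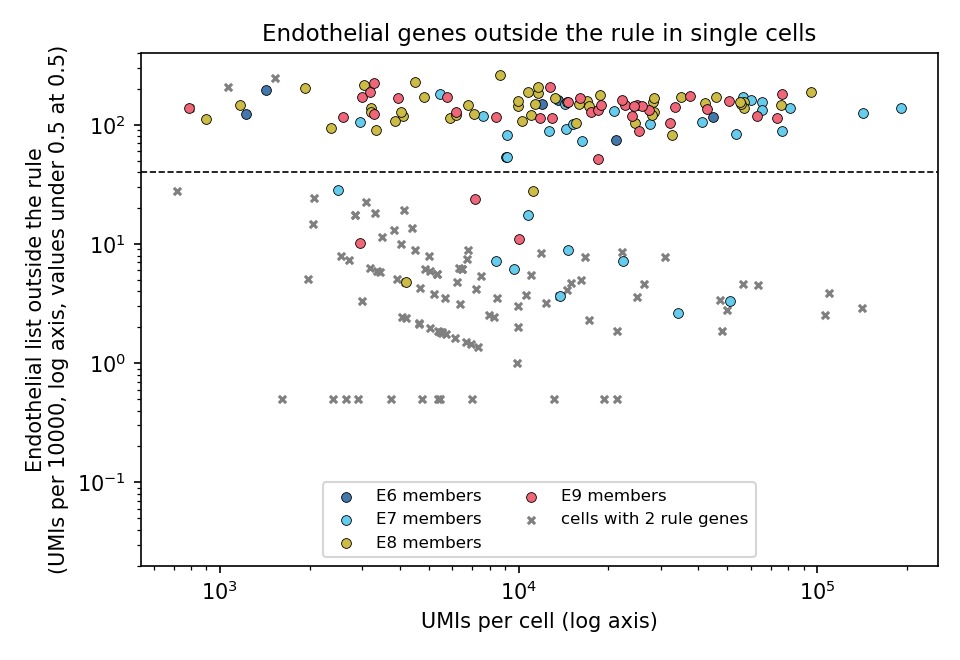
Summed UMIs of the 19 endothelial genes outside the rule per 10000 UMIs of the cell (log axis, values under 0.5 drawn at 0.5) against the UMIs of the cell (log axis). Circles are the 127 members coloured by stage, crosses are the 97 cells with UMIs of 2 rule genes, and the dashed line stands at 40 per 10000. The 113 members above the line sit at 51.9 or more whatever their depth, and 14 members lie at 28.1 or less, among the crosses.

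The genes of the rule chose the cells, so their values are a description. Of the 127 members, 87 had a UMI of all 5 genes, 27 of 4 and 13 of 3. Just outside the rule, 97 cells had a UMI of 2 of the genes and 1480 of 1. The median number of rule-gene UMIs was 117 in the 5-gene members, 18 in the 4-gene members, 8 in the 3-gene members (range 4 to 60) and 2 in the cells just outside (range 2 to 42). Of the 97 cells just outside, 3 lay above the line of 40 per 10000 for the endothelial list, as did 8 cells with 1 or no rule gene; these 11 cells held 796 to 3295 UMIs.

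CDH5 encodes VE-cadherin, the adhesion molecule of endothelial junctions; it took 1331 UMIs in 1000000 UMIs (CPM) in the members of the first sublibrary and 1563 in those of the second, and 2.20 CPM over all other cells. Its gene lies on chromosome 11 (GRCg7b, 11164699 to 11194052). KDR, the main signalling receptor for VEGF, stood at 905 and 838 CPM, against 3.29 in other cells (chromosome 4, 64703991 to 64731765). FLT1, a receptor that binds VEGF and limits its signal, was in every member, at 2581 and 2552 CPM. It was also the least particular of the 5, with 6800 UMIs in other cells, so that members held 53.6% of its UMIs, against 95.4% for CDH5. EMCN, the sialomucin endomucin, stood at 621 and 697 CPM, and TIE1, an orphan receptor of the angiopoietin system, at 211 and 245 CPM. Since these 5 genes chose the members, the gap between members and other cells in them was set by the rule.

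The members were deep cells. They had a median of 14510 UMIs (range 790 to 191258) and 4324 genes, against 4355 UMIs and 1954 genes in the other cells, and together held 3061903 UMIs, or 3.02% of all. The 10 deepest members held 30.8% of the members' UMIs, and 20 members had more than 50000 UMIs. The median depth was 21211 UMIs in the 5-gene members, 5758 in the 4-gene members and 8397 in the 3-gene members.

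Endothelial cells took a larger share of the cells at E8 and E9 than at E6 and E7. At E6 they were 7 of 2488 cells (0.281%, exact 95% interval 0.113 to 0.579%) and at E7 32 of 7648 (0.418%, 0.286 to 0.590%). At E8 they were 50 of 2478 cells (2.02%, 1.501 to 2.65%) and at E9 38 of 2576 (1.48%, 1.05 to 2.02%). The 3 wells of a stage spanned 0 to 0.605% (E6), 0.337 to 0.507% (E7), 1.48 to 2.46% (E8) and 1.36 to 1.66% (E9). No well of E6 or E7 reached the lowest well of E8 or E9, whereas the wells of E6 and E7 overlapped, and so did those of E8 and E9.

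Depth differed between stages, and the rule depends on it. The median of the other cells was 6034 UMIs at E7 and 3023 to 3283 UMIs at the other stages. With every cell thinned to 1000 UMIs and the rule applied again, which left out 280 shallower cells, the shares of E6, E7, E8 and E9 were 0.249, 0.275, 1.64 and 0.766%. Thinned intervals of E7 (0.170 to 0.419%) and E9 (0.462 to 1.19%) did not overlap, while those of E8 (1.17 to 2.24%) and E9 overlapped at their ends. The thinned interval of E6, with 6 members (0.0916 to 0.542%), overlapped that of E9 and lay below that of E8. Counting only the 113 members above the line of 40 per 10000, the shares were 0.281, 0.301, 1.94 and 1.36%. Each stage was 1 pool of dissected tissue, so a stage and its dissection and dissociation cannot be told apart.

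**Figure D2:**
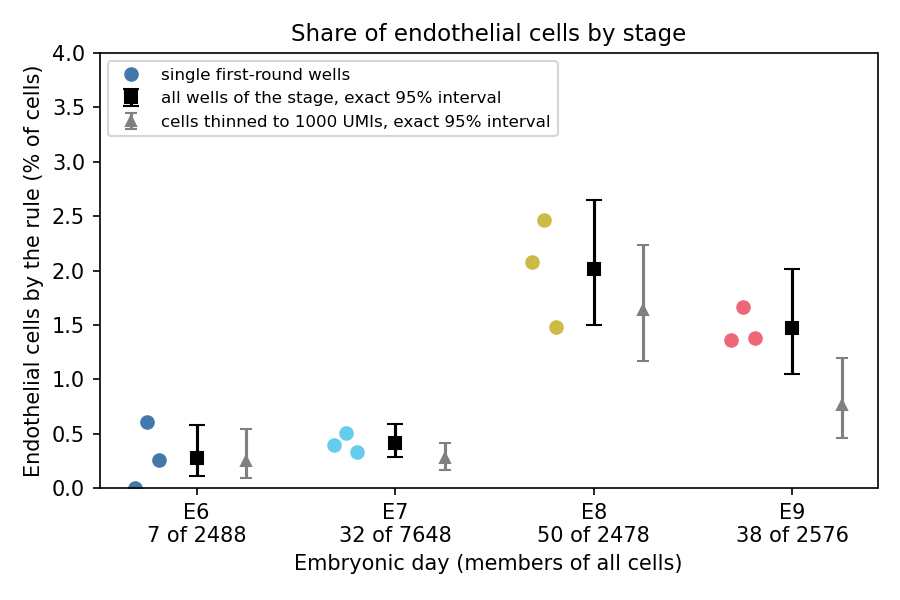
Share of cells that are endothelial by the rule (percent of cells) at each embryonic day, with members and cells below each day. Circles are the 3 first-round wells of a stage, black squares the whole stage, and grey triangles the stage after thinning each cell to 1000 UMIs, both with exact 95% binomial intervals. All wells of E8 and E9 lie at 1.36% or more and all wells of E6 and E7 at 0.605% or less, and thinning lowers E9 most, to 0.766%.

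Outside the rule, summed levels of the members were set against those of all other cells. Because the cells were chosen by counts of the same cells, the ratios carry no test. A gene is called higher at a ratio of 4 or more with at least 20 CPM and 30 UMIs in members, and lower when other cells stood 4 times or more above members, with at least 20 CPM in other cells. Of 7861 genes with enough counts, 916 were higher, which is 11.7%, and 1053 were lower, which is 13.4%. The median log2 ratio over all of them was -0.058, and scaling by the median of ratios moves it by 0.27.

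The 25 leading genes (outside the rule, with a symbol, at least 100 CPM and a UMI in 30% or more of the members, ranked by log2 ratio) ran from HOXB7, with 9.94, to SOX7, with 7.73. Von Willebrand factor, VWF, which tethers platelets to the vessel wall, stood at 5951 CPM (exact 95% Poisson interval 5864 to 6038) against 9.33 in other cells. It had a UMI in 94.5% of members. It was similar in both sublibraries, at 5860 and 6024 CPM.

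Several leading genes encode matrix or surface proteins of endothelium. EGFL7, a secreted factor of the endothelial matrix, stood at 527 CPM against 0.631, and MMRN2, a ligand of the C-type lectin CLEC14A in vessel walls, at 1108 against 2.37. ECSCR, an endothelial sialomucin, stood at 196 against 0.316, PCDH12, an endothelial protocadherin, at 137 against 0.316, and PTPRB, the phosphatase that restrains VE-cadherin and TEK signalling, at 1482 against 4.68. STAB2, a scavenger receptor best known in mammals from sinusoidal endothelium of liver and spleen, stood at 585 CPM against 1.21 and had a UMI in 83.5% of members. NOS3, the endothelial nitric oxide synthase, stood at 202 against 0.530. CD248, known in mammals mainly from mural cells and fibroblasts, stood at 220 CPM against 0.580 here, with UMIs in 72.4% of members.

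The transcription factors among the leading genes were HOXB7, ZNF366, SOX18, SOX7, ERG and FLI1. HOXB7, a homeobox gene that patterns the trunk, stood at 120 CPM (108 to 133) in members and 0.122 (0.0631 to 0.213) in other cells. It was 115 CPM in the first sublibrary and 124 in the second, and 104 CPM at E7, 138 at E8 and 123 at E9. It had a UMI in 63.8% of members, and no member held more than 6.79% of its UMIs. MYO1A, known as a myosin of the intestinal brush border, stood at 521 CPM against 0.815, with 526 and 517 CPM in the 2 sublibraries. The others were APOLD1, C1HXORF36, AFAP1L1, GJA5, P2RY8, ABCB1, SLC9A3, ADGRF5 and TXK. A further 3 entries without a symbol in the gene table would rank among them.

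Of the list of endothelial identity genes, 17 of 19 measured entries had enough counts and 16 were higher (94.1%, beside 11.7% of all genes), with a median log2 ratio of 6.18. The exception was S1PR1, a receptor for sphingosine phosphate, with 184 CPM against 75.7. PECAM1, an adhesion molecule of endothelial junctions, stood at 731 CPM against 68.4, TEK, the angiopoietin receptor, at 159 against 2.90, and CD34 at 259 against 1.61. CLEC14A had 1 UMI in all members together. Transcription factors of endothelium were as one-sided: 18 of 19 with enough counts were higher, all but MEF2A. ERG, which keeps endothelial genes on, stood at 679 CPM against 2.28, FLI1 at 913 against 3.98, and EPAS1, the hypoxia-induced factor of endothelium, at 832 against 36.1. SOX17 was near 0, with 1.63 CPM, whereas its relatives SOX18 and SOX7 stood at 121 and 110 CPM in the members and at 0.173 and 0.519 CPM in other cells.

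**Figure D3:**
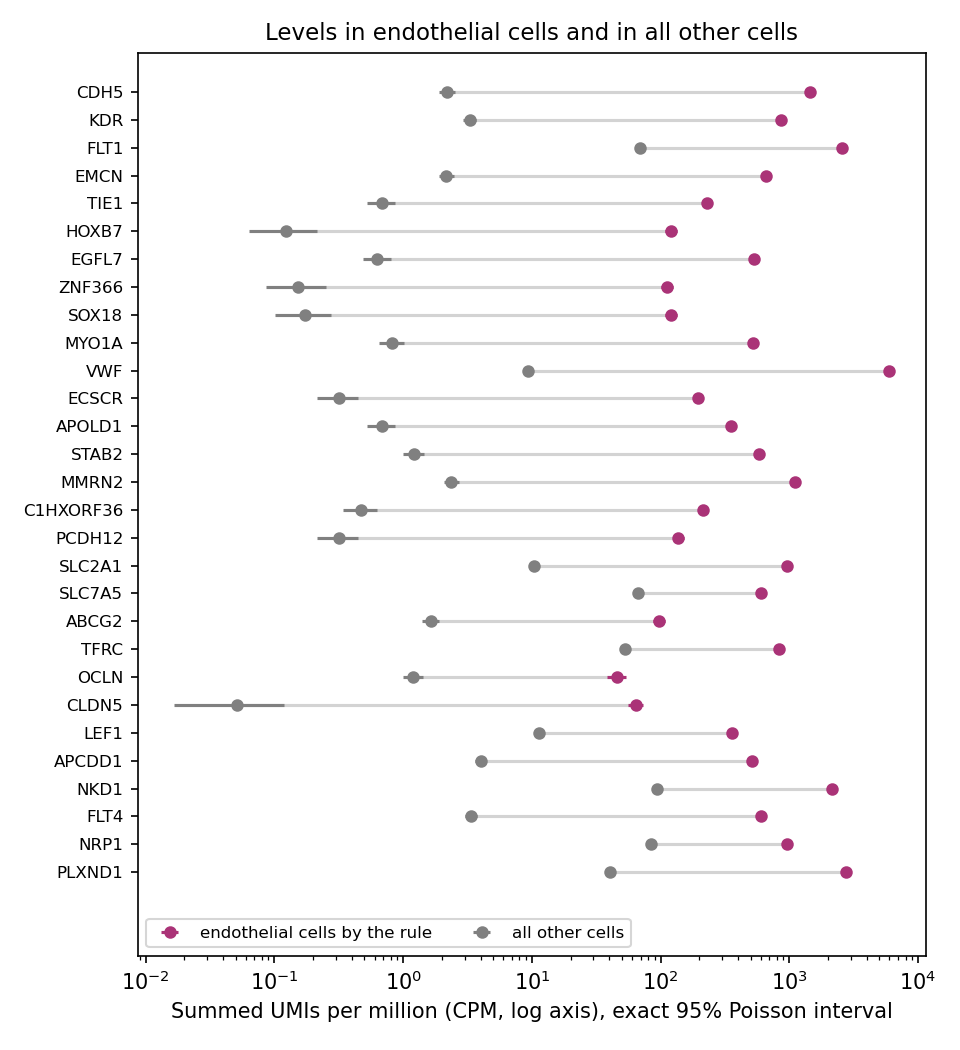
Summed CPM (log axis) of the rule genes, the first 12 leading genes and chosen genes of the barrier, WNT and VEGF lists in the 127 members (purple) and the 15063 other cells (grey), with exact 95% Poisson intervals. All points of the members lie to the right of those of other cells; the gap is widest for CLDN5 (64.0 against 0.0509 CPM) and narrowest for SLC7A5 (607 against 67.1 CPM).

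Receptors for VEGF and their partners were high in the members, and the ligand was not. Of 8 genes of the VEGF list, 6 were higher, beside 11.7% of all genes. FLT4, the receptor for VEGF-C, stood at 608 CPM in the first sublibrary and 596 in the second, against 3.38 CPM in other cells. PLXND1, a semaphorin receptor that steers sprouts, stood at 2754 CPM against 40.8. NRP1, a co-receptor of VEGF, stood at 967 against 84.2, and NRP2 at 169 against 29.4. VEGFA itself stood at 11.1 CPM in members and 31.0 in other cells.

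Tip cell genes were higher for 7 of 10 with enough counts, beside 11.7% of all genes. They included DLL4, the Notch ligand of tip and arterial cells, with 430 CPM against 2.64, PDGFB, which recruits mural cells, with 207 against 5.12, and ANGPT2, an antagonist of TEK, with 121 against 3.64. ESM1 stood at 28.7 CPM against 0.16. APLN had no UMI in any member. Of the Notch list, DLL4 alone among 8 genes with enough counts was higher and HES5, a Notch target of neural progenitors, was lower, with 6.86 CPM against 50.3; at 12.5% the share of higher genes was near the 11.7% of all genes. NOTCH1, the receptor, stood at 616 CPM against 300.02 and JAG1, a further ligand, at 328 against 116.

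Carriers, efflux pumps and junction proteins of the barrier were among the genes higher in members. Of 32 measured entries of the barrier list, 23 had enough counts, 13 of these were higher (56.5%, beside 11.7% of all genes) and 1 was lower. SLC2A1, the glucose carrier of brain capillaries, stood at 971 and 950 CPM in the 2 sublibraries, against 10.4 in other cells. ABCB1, the P-glycoprotein efflux pump, stood at 456 CPM against 1.25, and a second entry of that symbol at 82.3 against 0.26. TFRC, the transferrin receptor that takes up iron, stood at 831 against 53.2, SLC7A5, a carrier of large amino acids, at 607 against 67.1, and ABCG2, an efflux pump, at 97.3 against 1.64.

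CLDN5, the main claudin of brain capillaries, stood at 64.0 CPM against 0.0509 and OCLN, occludin, at 45.7 against 1.20. TJP1, a junction scaffold, stood at 1060 CPM against 429 and was not called. MFSD2A, the lipid carrier that holds transcytosis down in the mouse, stood at 39.5 CPM in members and 25.1 in other cells, and was not called either. SLCO1C1, a thyroid hormone carrier, had 0.33 CPM, SLC16A1 3.27 CPM, and FOXQ1 1.31 CPM.

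Genes of permeable vessels were also present. PLVAP, the protein of fenestral diaphragms, stood at 77.7 CPM against 0.61 in other cells, CAVIN2, a caveolar coat protein, at 58.8 against 6.05, and EHD2 at 41.2 against 2.31. These were all 3 genes of the permeable list with enough counts, beside 11.7% of all genes called higher. CAV1 stood at 9.47 CPM against 0.47, and CD36 and FABP4 had no UMI in the members.

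Of the WNT list, 5 of 13 genes with enough counts were higher, beside 11.7% of all genes: FZD6, ADGRA2, LEF1, APCDD1 and NKD1. ADGRA2, also called GPR124, is the co-receptor for WNT7 ligands in brain endothelium, and stood at 53.6 CPM against 1.44. LEF1, a transcription factor of the pathway, stood at 375 and 348 CPM in the 2 sublibraries, against 11.4 in other cells. APCDD1 and NKD1, inhibitors of the pathway that it switches on in turn, stood at 510 CPM against 4.02 and at 2142 against 93.0. FZD4, a receptor, stood at 23.0 CPM at E7 and 8.67 at E9, below the CPM needed for a call over all members. AXIN2, a target used in many tissues, was not higher, with 68.6 CPM against 82.4, and RECK, the partner of ADGRA2, stood at 109 against 65.3.

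The ligands lay in other cells. WNT7B stood at 190 CPM in other cells and 20.3 in members. ANGPT1, the ligand that activates TEK, stood at 59.9 against 8.82, and SLIT2, a guidance cue, at 756 against 84.3. Of 6 genes of the tissue signal list with enough counts, these and SEMA3A were lower in members and PDGFB was higher. Over all genes 13.4% were lower and 11.7% higher.

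Members also held genes of the vessel wall. The list counts here stand beside 11.7% of all genes called higher. Of the basement membrane and integrin list 8 of 19 were higher, among them HSPG2, perlecan, with 744 CPM against 16.2, LAMB1 with 441 against 15.3, COL4A1 with 427 against 33.4, COL4A2 with 323 against 23.5, and ITGA5, a fibronectin receptor, with 396 against 2.86. AGRN, agrin, ran the other way, with 345 CPM against 843, short of the fold called. Of the TGF-beta list 4 of 13 were higher, with TGFBR2 at 525 CPM against 7.70 and ENG, its co-receptor, at 146 against 2.02. Of the angiopoietin and vessel tone list 7 of 11 were higher, with EPHA2 at 228 against 9.85 and EDNRB, an endothelin receptor, at 81.3 against 6.34.

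Some markers of other vessel and blood lineages were higher in members and others had no UMI. Of the lymphatic list FLT4 alone was higher of 3 with enough counts; PROX1, the master regulator, stood at 27.1 CPM against 15.3, LYVE1 at 4.90 CPM against 4.22, PDPN had 3 UMIs and CCL21 had 1. KIT, of the blood-forming endothelium list, stood at 206 CPM against 3.82, while RUNX1 stood at 21.9 and PTPRC at 13.1 CPM. Of the mural list ACTA2 and ANPEP were higher of 5, and PDGFRB stood at 108 CPM against 36.9, with a UMI in 26 members. Of the erythroid list 2 of 3 with enough counts were higher, CA2, a carbonic anhydrase, with 98.3 CPM against 9.28, and TAL1, which also stands on the list of endothelial factors, with 74.1 against 0.47. The globin HBBA stood at 23.2 CPM against 8.61. Of the myeloid list 1 of 3 was higher, IRF8, with 23.5 CPM against 3.54, and of the mesenchyme list 1 of 2, SLC6A13, with 40.2 against 7.37. None of these lists had a gene called lower. Over all genes 11.7% were higher, and each of these lists had few genes with enough counts. The summed level of the erythroid list was 230 CPM in members against 33.7 in other cells, that of the myeloid list 89.5 against 62.4, of the mesenchyme list 117 against 64.2 and of the mural list 308 against 86.2, and their part in the results was not tested. TWIST1, FOXD1 and ALX1 of the mesenchyme list, C1QA, C1QB and C1QC of the myeloid list and HBZ of the erythroid list had no UMI in the members.

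Neural lists were lower. Of the neuron list 8 of 11 were lower and none higher; SYT1 stood at 320 CPM against 1734 and DCX at 57.5 against 570. Of the Purkinje list 5 of 8 were lower, among them FOXP2 with 239 CPM against 3088 and RORA with 149 against 1858, and 1, DAB1, was higher. Of the granule cell list 5 of 8 and of the radial glia list 5 of 10 were lower, and none was higher. Over all genes 13.4% were lower and 11.7% higher. The neuron list took a median of 4.73 UMIs per 10000 in single members and 40.7 in other cells.

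Arterial and venous genes were mixed within the members. Of 10 arterial genes with enough counts 5 were higher than in other cells: GJA5, GJA4, SEMA3G, DLL4 and NRP1. Of 6 venous genes 3 were higher: VWF, NRP2 and DAB2. Over all genes the share called higher was 11.7%. NR2F2, the venous regulator, stood at 67.6 CPM against 81.3. GJA5, the arterial gap junction protein connexin 40, stood at 136 CPM but had a UMI in 42 members only, 33.1%. Its wells ranged from 12.6 to 307 CPM at E9 and from 36.2 to 241 CPM at E8, so that wells of 1 stage differed widely, and 1 member held 21.1% of its UMIs.

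To see which genes went with GJA5, a split chosen after its values were seen set the 22 members of at least 5000 UMIs and 100 CPM of GJA5 against the 62 of that depth with none; 17 lay between. The groups held 7, 10 and 5 cells of E7, E8 and E9 against 18, 20 and 19, with 5 cells of E6 in the second. The cells without GJA5 were shallower, with a median of 14556 against 32939 UMIs, and at that depth 100 CPM is 1.46 UMIs, so that some of them may have missed it. Of 4111 genes tested with a 2-fold rule, 99 were higher with GJA5, which is 2.41%, and 231 were lower, which is 5.62%.

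Of 8 arterial genes tested 4 were higher in the cells with GJA5 and none lower, with a median log2 ratio of 1.06 against -0.016 over all genes tested. The medians of the endothelial, venous, Notch and barrier lists were 0.31, 0.33, 0.35 and 0.30, and those of the tip and WNT lists 0.18 and 0.088. Of the cells with GJA5, 21 of 22 lay above the line of 40 per 10000, and of those without it 52 of 62. GJA4, connexin 37, stood at 50.9 CPM in the cells with GJA5 and 11.04 in those without. SEMA3G, an arterial semaphorin, stood at 170 against 43.4, VEGFC at 202 against 71.4 and UNC5B, a netrin receptor, at 81.4 against 36.8. EFNB2, the arterial ephrin, stood at 395 CPM against 199, a log2 ratio of 0.98, just short of the call. These 4 were higher in both sublibraries, and the counts were 4 and 0 again with members above the line of 40 per 10000 only.

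Of 5 venous genes tested none was called; above the line of 40 per 10000 1 of 6, DAB2, was lower, with a log2 ratio of -1.14. TMEM100 of the venous list had too few UMIs for a call, 23 with GJA5 and 6 without, and a log2 ratio of 2.41. NRP2 ran lower in the cells with GJA5, with 114 against 199 CPM, VWF ran higher, with 7713 against 4997 CPM, and NR2F2 stood at 80.3 against 59.6 CPM. Of 6 genes of the tip cell list tested, 1 was lower, ANGPT2, with 71.2 against 145 CPM. The 2 that were higher were COL4A1, with 678 against 280 CPM, and UNC5B, which also stands on the arterial list. Cells of a pool are not replicates, so these values of 22 and 62 cells carry no test.

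**Figure D4:**
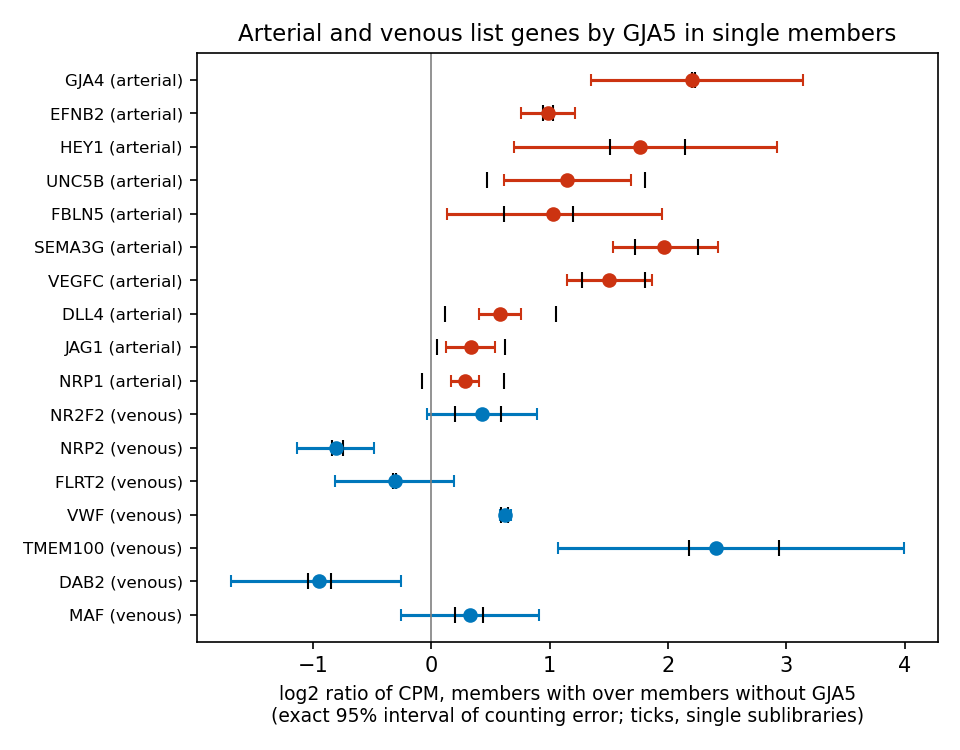
Log2 ratio of summed CPM in members with 100 CPM or more of GJA5 over members without it, for genes of the arterial list (red) and the venous list (blue) with 20 UMIs or more in both groups together. Bars are exact 95% intervals of counting error and ticks the values of the 2 sublibraries. GJA4 (2.20), SEMA3G (1.97), VEGFC (1.503) and UNC5B (1.14) lie to the right of 0 in both sublibraries. So do TMEM100 (2.41), VWF (0.63), NR2F2 (0.43) and MAF (0.33) of the venous list. NRP2 (-0.80), FLRT2 (-0.31) and DAB2 (-0.95) of that list lie to the left.

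Some members had UMIs of cell division genes, at a share near that of other cells. After thinning to 2000 UMIs, 22 of 121 members (18.2%, exact 95% interval 11.8 to 26.2%) had a UMI of at least 2 of 12 measured cell cycle genes, beside 14.8% of the other cells thinned alike; 6 members were too shallow. Without the 14 low members the share was 15.0%, near that of other cells. Without thinning the shares of all members and of other cells were 55.9 and 22.6%. Thinned to 1000 UMIs the members' share was 4%, and with 3 cycle genes asked for 7.44%. By stage the thinned share was 0 of 5 members at E6, 9 of 32 at E7 (28.1%, 13.7 to 46.7%), 9 of 47 at E8 (19.1%) and 4 of 37 at E9 (10.8%, 3.03 to 25.4%). The intervals of E7 and E9 overlapped. Other cells went from 13.1% at E7 to 22.7% at E9. Without those 14, E7 came to 17.4% and E9 to 11.8%. Of the cycle list no gene was called against other cells; TOP2A, a marker of S to M phase, stood at 162 against 146 CPM.

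Between E7 and E9, the earliest and the latest stage with at least 20 members, 1 of 16 genes of the endothelial list with enough counts was higher, EMP1, and none was lower; without the 14 low members PLVAP was called lower, with a log2 ratio of -1.11. Of 18 endothelial transcription factors NFATC1 was higher and SOX7 lower, and without the 14 ETS2 (-1.19) and FOXO1 (-1.05) were called lower as well. A gene is called at a 2-fold change with at least 50 UMIs in the 2 stages together and 50 CPM at the higher one. Of 4292 genes 158 were higher at E9, which is 3.68%, and 384 were lower, which is 8.95%, with a median log2 ratio of -0.062. Without the 14 low members 160 were higher and 255 lower. Of the 384, 205 were genes lower in members than in other cells and 16 were genes higher in members. Among all 4292 genes 676 were higher in members, and the number lower in members is not given here, so the 205 has no base beside it.

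The largest falls were in genes that the members had little of. The 10 named (EGF, GABRG3, BOC, PAX5, RALYL, TLCD4, RYR3, GAD2, TNC and SHROOM3) had log2 ratios from -5.39 to -3.85, and all 10 were lower in members than in other cells. These ratios rest on few UMIs at E9, in that order 1, 3, 3, 2, 2, 3, 3, 5, 11 and 4. For EGF the counting interval was -10.7 to -2.86, the sublibraries had -5.52 and -1.74, and 1 member held 37.9% of its UMIs. The second sublibrary had no UMI of EGF at E9, so its -1.74 rests on a count of 0 raised to 3. GAD2, the enzyme that makes GABA, went from 99.8 CPM at E7 to 14.3 at E8 and 6.19 at E9, and TNC, tenascin C, from 202 to 15.3 and 13.6. At E6 members stood at 19.4 CPM for GAD2 and 9.68 for TNC, and had no UMI of EGF, GABRG3, RALYL or SHROOM3. In other cells from E6 to E9 GAD2 stood at 252, 579, 306 and 224 CPM and TNC at 396, 898, 424 and 342. From E7 to E9 other cells also went down for all named falls but EGF, GABRG3 and RALYL. The 14 low members held 14.3% of the members' UMIs at E7, 1.57% at E8 and 2.49% at E9, and the neuron list took a median of 10.7 UMIs per 10000 in members at E7 and 3.94 at E9. Without the 14 the number of genes lower at E9 was 255. The 2 deepest members of E7 held 28.4% of its UMIs. Genes of the W chromosome, which only female birds carry, stood at 353 CPM in members at E7 and 232 at E9, and their part in the stage values was not tested.

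Among the 676 genes with enough counts that were 4-fold higher in members, a set chosen after the values were seen, 80 were higher at E9, which is 11.8%, and 16 were lower, which is 2.37%. Their median log2 ratio was 0.23, beside -0.11 over the other 3616 genes. Without the 14 low members the counts were 65 and 34. The 4-fold filter pooled members of all stages, so a gene high at only some stages could enter the set through them. At E7 NFATC1 stood at 7.67 CPM in members against 3.31 in other cells, and IGSF11 at 107 against 45.5. At E9 PDZRN4, one of the falls, stood at 100 against 113. How far the filter shaped these counts and medians was not tested, so the contrast with the other 3616 genes is a description only.

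The named rises were EMP1, NFATC1, NLRC5, PADI1, IGSF11, ZNF692, DNAH10, SQSTM1, RNF213 and AOX2, with log2 ratios from 3.22 to 1.85. IGSF11, an adhesion molecule, stood at 107 CPM at E7, 239 at E8 and 483 at E9. Its wells ranged from 37.1 to 159 CPM at E7 and from 458 to 512 at E9. SQSTM1, the autophagy adaptor p62, stood at 44.3, 98.1 and 175 CPM, with E7 wells of 17.4 to 73.1 and E9 wells of 126 to 220. RNF213, a large ubiquitin ligase linked in people to moyamoya vessel disease, stood at 58.8, 127 and 222 CPM. All 10 were chosen among genes whose wells of E7 and E9 did not overlap. NFATC1, a factor of heart valve endothelium, stood at 7.67, 41.9 and 58.2 CPM, with 22.4% of its UMIs in 1 member. Its E9 level was 92.3 CPM in the first sublibrary and 11.7 in the second. The log2 ratios over E7 were 3.57 and 0.62, the latter short of the call. EMP1, a membrane protein, stood at 5.97, 21.5 and 55.7 CPM, with 34.2% of its UMIs in 1 member.

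SOX7 led the falls among genes 4-fold higher in members. This relative of SOX18, which acts early in endothelium, stood at 126, 185, 70.5 and 47.1 CPM from E6 to E9. The wells of E7 ranged from 171 to 205 CPM, those of E8 from 48.3 to 87.0 and those of E9 from 35.7 to 58.8. The log2 ratio of E9 over E7 was -1.98 (counting interval -2.51 to -1.47), -2.29 in the first sublibrary and -1.65 in the second, and -2.16 without the 14 low members. SOX18 stood at 109 CPM at E7 and 178 at E9. Of the 16 falls of this set, those that also had the same sign in both sublibraries and wells apart were SOX7, ATP1B1, PDZRN4, PGM5, HTRA3, TOX2, CCDC80, CMTM7 and RARRES1; the 8 after SOX7 had log2 ratios from -1.57 to -1.03.

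Most barrier genes were not called between the stages. Over 24 barrier genes with at least 20 UMIs the median log2 ratio of E9 over E7 was 0.046, against -0.14 over all 8949 such genes. Without the 14 low members these medians were 0.011 and -0.12. Of 16 with enough counts 1 was higher, MFSD2A, and none was lower. Over all genes 3.68% were higher and 8.95% lower. Without the 14 low members 1 of 17 was higher and 1, IGFBP7, was lower, with a log2 ratio of -1.05. MFSD2A had no UMI in the 7 members of E6, and stood at 29.0 CPM at E7, 37.8 at E8 and 61.9 at E9. Its wells of E7 (26.2 to 33.7 CPM) lay below those of E9 (34.1 to 87.9), and those of E8 (8.05 to 67.1) overlapped both.

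ABCB1 stood at 107, 358, 507 and 581 CPM at E6, E7, E8 and E9. The log2 ratio of E9 over E7 was 0.70 (0.50 to 0.89), and the wells of E7 (254 to 434 CPM) and E9 (416 to 678) overlapped. The second entry of that symbol stood at 19.4, 65.7, 81.7 and 115 CPM. SLC2A1 stood at 930, 886, 873 and 1175 CPM, with overlapping wells. CLDN5 stood at 48.4, 92.1, 27.6 and 69.4 CPM, with no order by stage. PLVAP stood at 126, 122, 30.7 and 64.4 CPM. Of 3 genes of the permeable list with enough counts 1 was higher at E9, EHD2, with 66.9 CPM against 21.3 at E7.

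Of 13 WNT genes with enough counts 1 was lower at E9, LGR5, and none was higher, beside 8.95% lower and 3.68% higher over all genes. Over 14 genes the median log2 ratio was -0.51 (SD 0.33 over the 2 sublibraries), beside -0.14 over all genes. It was -0.093 without the 42 members with 6 or more neuron genes, -0.16 with E8 and E9 pooled against E6 and E7, and -0.14 in the first sublibrary alone. Over all genes the medians under these settings were -0.016, -0.12 and -0.040. Without the 14 low members APCDD1 was called lower as well. NKD1 stood at 3283, 2152, 2705 and 1299 CPM from E6 to E9, and its E9 wells (1151 to 1562 CPM) lay below those of E7 (1981 to 2377) and of E8 (2241 to 3174). APCDD1 stood at 494, 652, 456 and 372 CPM, and LEF1 at 426, 448, 311 and 285 CPM. The wells of E7 lay above those of E9 for both, at 536 to 725 against 308 to 512 CPM for APCDD1 and at 432 to 480 against 250 to 361 CPM for LEF1. The log2 ratios were -0.73 for NKD1, -0.81 for APCDD1 and -0.65 for LEF1, none of them called over all members. With 2 rule genes asked for in place of 3, which adds 97 cells, the list median was 0.066 and these 3 ratios were positive.

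Over all genes 8.95% were lower at E9 and 3.68% higher. Of the angiopoietin, TGF-beta, cycle and tissue signal lists 2 of 10, 1 of 10, 3 of 5 and 1 of 2 were lower. Of the neuron, Purkinje, granule and radial lists 4 of 8, 2 of 5, 1 of 3 and 3 of 7 were. Without the 14 low members the cycle list had 0 of 4 and the neuron list 2 of 6. Of the mesenchyme list 2 of 2 were higher. The VEGF, Notch, tip and venous lists had none called. Of 8 arterial genes 1 was lower, EFNB2, with 370 CPM at E7, 255 at E8 and 180 at E9. Its E9 wells of 109 to 219 CPM lay below E7 wells of 355 to 382. NRP2 ran the other way without reaching the call, with 128, 180 and 230 CPM, and its wells at E7 (89.4 to 204 CPM) lay below those at E9 (209 to 260). VWF stood at 4639, 4451, 7480 and 6443 CPM, and its wells at E7 (3832 to 4956 CPM) lay below those at E8 (6975 to 8180) and E9 (5398 to 7516).

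**Figure D5:**
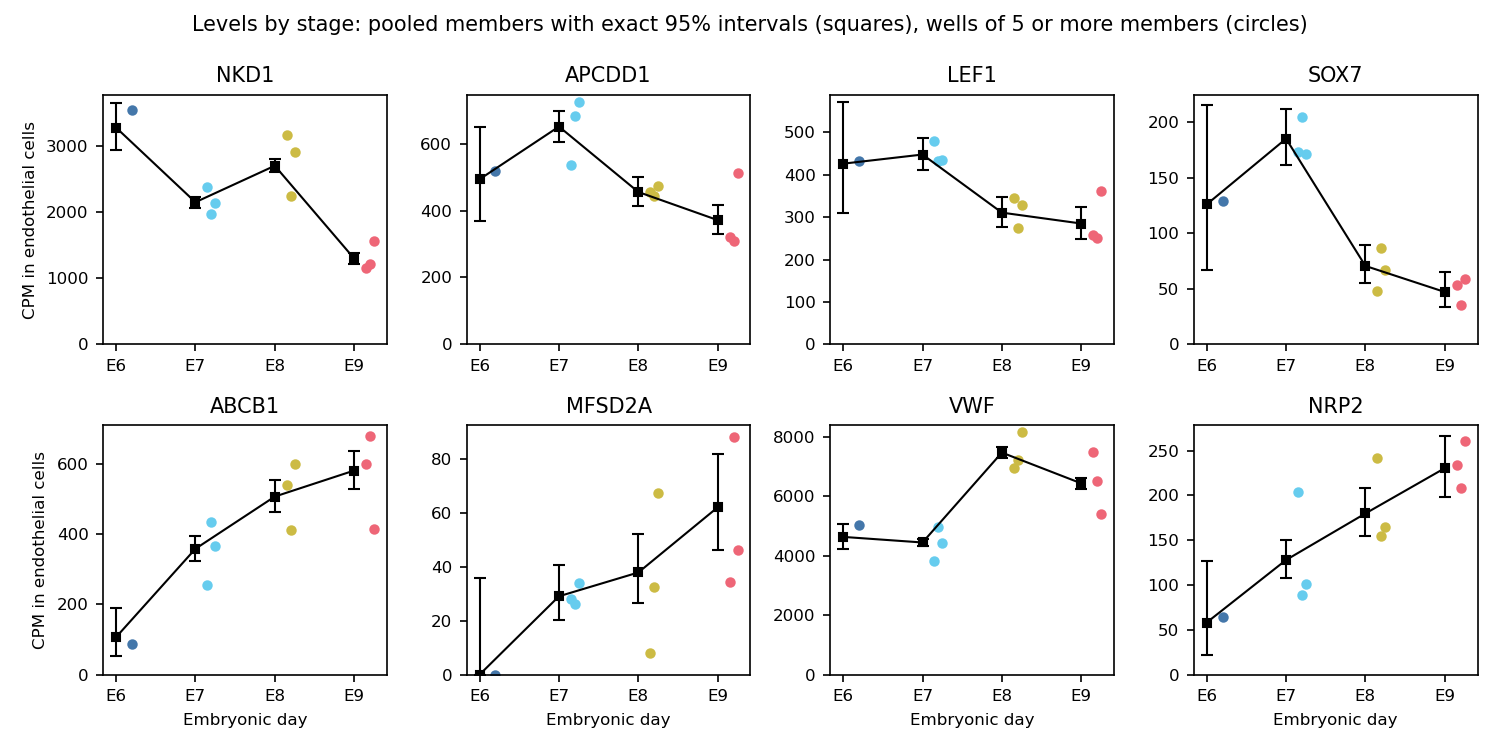
CPM of 8 genes in endothelial cells at each embryonic day. Black squares are all members of a stage with exact 95% Poisson intervals, joined by lines, and circles are first-round wells with 5 members or more. SOX7 goes from 185 CPM at E7 to 47.1 at E9 and NKD1 from 2152 to 1299 with wells apart, while the wells of ABCB1 overlap between E7 and E9.

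Levels at E6 rest on 7 members, of which the 2 deepest held 63.9% of the UMIs. With that limit, ANGPT2 stood at 475 CPM at E6 and between 101 and 130 at the later stages, ESM1 at 165 and between 21.1 and 26.4, and GJA5 had no UMI at E6.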

How the data were processed

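The deposited data were 1 matrix of UMI counts per cell and gene for both sublibraries, with tables that describe its cells and genes. The deposited values are raw counts, not normalized, and summed per cell they matched the transcripts listed for that cell in 100% of 15190 cells. The submitters' processing notes name Cell Ranger, Seurat and the genome build GRCg7b without role or version; how barcodes were called cells is not given in the sources used here. Stage and first-round well were read from the cell table, and sublibrary from the end of the barcode.

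Counts were summed over members and over other cells and divided by total UMIs (CPM), with exact Poisson intervals; shares have exact binomial (Clopper-Pearson) intervals. A count of 0 was raised to 3 counts in ratios. Wells with fewer than 5 members were left out of levels, not of shares. As all samples form 1 group and each stage is 1 pool, no test was run; calls are by size, as defined with each comparison, and their scripts were tested on simulated counts. No doublet caller was run; members with 6 or more neuron list genes were left out in an alternative. Members and gene lists were chosen with earlier results of these data known. Named genes are the rule genes, the 25 leading genes, list genes (all measured for the endothelial, barrier, WNT, arterial and venous lists, otherwise up to 6 of highest CPM and those at 0), and 10 stage changes per direction with the same sign in both sublibraries and wells apart; other genes named were chosen after their values were seen. Some genes of the lists are not reported here by name. Of the symbols, 12863 had a RefSeq entry, from which coordinates were taken. Antisense or overlapping genes and near-identical copies may share UMIs. Python 3.11.15, numpy 2.4.6, scipy 1.17.1 and pandas 2.3.3 were used.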

Additional observations from a re-analysis of the deposited data

Results flagged for a closer look

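In 8 of the genes named for their stage change, the members and the other cells moved in opposite directions between E7 and E9 in both sublibraries; the difference was not tested. The log2 ratio of E9 over E7 in members was -1.38 for PDZRN4, where other cells had 1.86, -1.30 for HTRA3 (1.75), -1.31 for PGM5 (1.40), -1.08 for CMTM7 (0.31) and -1.03 for RARRES1 (0.50), all 5 genes that were 4-fold higher in members. It was -5.39 for EGF, where other cells had 0.25, -4.56 for GABRG3 (0.41) and -4.42 for RALYL (0.52), all 3 genes that were lower in members, beside the larger share of UMIs held by the 14 low members at E7 (14.3% against 2.49% at E9). Without those 14 the ratios of these 3 genes were -3.74, -3.62 and -3.51. Members at E9 held 1, 3 and 2 UMIs of them. In other cells at E7 and E9 PDZRN4 stood at 31.2 and 113 CPM and CMTM7 at 8.81 and 10.9. HTRA3 stood there at 1.93 and 6.51 CPM, PGM5 at 1.67 and 4.41, and RARRES1 at 0.667 and 0.945. The 5 rule genes together also went up in other cells, from 53.6 to 193 CPM, and what this has to do with the rises was not tested.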

How the results depend on the processing

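No paired analysis was possible because no result comes from a test: all samples are 1 group, and the 2 sublibraries split the same pools. The leading 25 genes kept log2 ratios of 7.03 to 10.4 under every alternative run. With 2 rule genes in place of 3 there were 224 members; the shares at E7, E8 and E9 were 1.14, 2.91 and 2.10%, 65 genes were lower in members, 478 were higher and 833 lower at E9 (305 and 1 among genes 4-fold higher in members), the barrier median was 0.49, and the WNT median reversed to 0.066, with NKD1 at 0.12, APCDD1 at 0.012, LEF1 at 0.30 and TCF7L2 at 0.0043. Asking for 4 rule genes gave 222 genes lower at E9 (35 in the 4-fold set) and a barrier median of -0.019. Thinning to 1000 UMIs gave shares of 0.275% at E7 and 0.766% at E9, and leaving out the 28 members with a barcode in both sublibraries gave 0.262% at E7 and a barrier median of 0.15. Without minimum counts 2405 genes were higher and 2121 lower in members. Pooling E8 with E9 and E6 with E7 gave 75 genes higher (36 higher and 7 lower in the 4-fold set) and a WNT median of -0.16, and the mean of single-cell CPM gave 315 higher and 622 lower (152 higher in the 4-fold set). Without the 42 members with 6 or more neuron genes 116 genes were lower, of which 35 were among the 384, with 53 higher and 40 lower in the 4-fold set and a WNT median of -0.093. Without the 14 low members, an alternative chosen after seeing the data like those on shared barcodes, the 4-fold set and the WNT list, 255 were lower, 200 of them among the 384 (34 in the 4-fold set). Scaling by the median of ratios, which shifts all stage ratios by 0.11, gave a barrier median of -0.062. Leaving out each sublibrary gave 63 to 64 members, 52 to 84 higher and 16 to 34 lower in the 4-fold set, a barrier median of 0.12 to 0.21 and a WNT median of -0.60 to -0.14. The share of members with the cycle genes asked for was 4% at 1000 UMIs and 7.44% with 3 cycle genes. Under both it was 12.5% at E7 and 0% at E9. The causes were not tested. At E6, 7 members limit every level.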

Other observations

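DAB1, the adaptor that carries the reelin signal and the one gene of the Purkinje list that was higher in members, stood at 2950 CPM in the first sublibrary and 3129 in the second, against 674 in all other cells, and had a UMI in 124 of 127 members. LRP8, a reelin receptor that also stands on the barrier list, stood at 915 CPM against 270. VLDLR, the other reelin receptor, had 2 UMIs in all members together (0.653 CPM, against 16.3 in other cells), and RELN itself stood at 383 CPM against 594. DAB1 was 3102 CPM at E7, 3387 at E8 and 2521 at E9 in members, and 547, 1255 and 1234 CPM in other cells of these stages.

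Some genes chosen after their values were seen varied by stage or by cell. PTGS2, the inducible cyclooxygenase, stood at 130 CPM in members against 1.10 in other cells and at 69.1, 134 and 222 CPM at E7, E8 and E9; at E7 it differed between sublibraries, with 142 and 33.1 CPM. HOMER1, a synaptic scaffold that is induced by activity in neurons, stood at 205, 394 and 697 CPM at these stages, and in other cells it went the same way, with 98.3, 237 and 267 CPM. DENND4C stood at 2412 CPM at E7 and 234 at E8, and at 534 and 127 CPM in other cells, but 33.9% of its UMIs were in 1 member, and the wells of E7 ranged from 237 to 5684 CPM.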
